A study of Rattus norvegicus with 28 samples.

Results

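The 68 genes described here encode cytosolic ribosomal proteins or carry the name of one. They are the genes whose symbol starts with Rpl or Rps and a digit, together with Rplp0, Rplp1 and Rpsa, without the S6 kinase genes (7 names starting Rps6k), and with a mean value of at least 10 over all libraries. They were taken from 17002 genes in the table, of which 14908 passed the same minimum. Of 72 names that matched, Rpl12, Rpl3l, Rpl37a-ps1 and Rps29 lay below the minimum, with means of 3.90 to 5.74. Rpl12 and Rps29 also have rows named by a protein entry, RL12_RAT and RS29_RAT, with means of 524 and 13.7, which are not members. Among the 68 are 27 proteins of the small subunit, 33 of the large subunit and 2 of the acidic stalk (Rplp0 and Rplp1). The other 6 are the paralogs Rpl10l, Rpl22l1, Rpl36al, Rpl7l1 and Rps4y2, and Rps19bp1, which binds Rps19 and is not itself a ribosomal protein. Rplp2, Rpl13a, Rpl38, Rpl39l and Rps27l were not analysed here.

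The study sequenced mRNA selected by its poly(A) tail from a single lobe, the right upper one, of lungs of Sprague Dawley rats, in 28 libraries from 8 groups. Rats without ventilation either had no injury (control_blank, n = 3) or were studied 14 days after chronic lung injury had been induced (control_chronic, n = 5). Ventilation was volume-controlled with a constant tidal volume (VCV) or with one that varied (noisy), which is the comparison the study was built on. Ventilated rats had no earlier injury (healthy_VCV, n = 4, and healthy_noisy, n = 3), an acute injury (acute_VCV, n = 3, and acute_noisy, n = 4) or a chronic injury (chronic_VCV, n = 3, and chronic_noisy, n = 3). The agent of injury, the length of ventilation and the age of the rats are not given in the sources used here. Whole lobes were used, so fewer cells of a type and less RNA per cell cannot be told apart.

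Ribosomal proteins and ribosomal RNA make up the small subunit, which decodes mRNA, and the large subunit, which joins amino acids. Most ribosomal protein mRNAs begin with a run of C and T at their 5′ end, the terminal oligopyrimidine or TOP motif, through which the mTOR pathway controls their translation. Assembly takes place largely in the nucleolus and needs many further factors, many of whose genes respond to the transcription factor Myc. Several members are also known outside translation: Rpl5 and Rpl11 bind Mdm2, and Rps19, Rps24 and Rps26 are among the genes mutated in Diamond-Blackfan anaemia.

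Runs of C and T near the annotated start are shown because the TOP motif is such a run at the 5′ end of the mRNA. A start window was found in RefSeq (build GRCr8) for 57 of the 68 members, and a run of at least 8 C or T that touched the 5 bases on either side of the annotated start was present in 35 of them (61.4%). The share among all 33469 promoters of the same table was 8.67%. Runs that end before the annotated start, as in Rpl23, are included, so these are not counts of TOP mRNAs. The next lines give 30 bases each, 10 before and 20 from the annotated start, 5′ to 3′ on the gene's strand, with the part of the run that falls in the window in capitals. The first 5 carry a run, and the last 3, from paralogs or look-alike names, do not. The choice of examples does not stand for the rest. Rpsa, Rps6 and Rpl3 are among the ribosomal proteins without such a run, and the paralog Rps4y2 has a run of 8.
Rps24, chr16:96507-96536, plus strand: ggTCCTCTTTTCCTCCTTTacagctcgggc
Rps27, chr2:177964587-177964616, minus strand: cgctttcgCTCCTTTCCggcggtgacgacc
Rps21, chr3:187724028-187724057, plus strand: agccaCTTCCTTTCTgtgttctccgtagac
Rps26, chr7:1643385-1643414, minus strand: ccgccgggTCCTCTTTCgagtcttggctcc
Rpl23, chr10:83272165-83272194, minus strand: CTTCCTTTCTgactctttccggacgctcaa
Rpl22l1, chr2:113683186-113683215, plus strand: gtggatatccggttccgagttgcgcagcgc
Rpl7l1, chr9:21695708-21695737, plus strand: cagatgcattgtgggaagcctttaactcgt
Rps19bp1, chr7:113693004-113693033, minus strand: tgtgggcggggcttggcagcatgtcggcgg
Of 2 further letter motifs searched on both strands of the promoter windows, from 250 bases before to 50 after the start,, CCGGAAGT was in 9 of 57 members (15.8%, against 3.81% of all promoters) and AAGATGGC in 3 (5.26% against 3.17%). A match is a description of the letters only.

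Values are the deposited normalized counts, in which each library's reads were scaled by its own size factor, and are called levels here. They are not divided by transcript length and do not rank genes by abundance. Changes are differences of log2(level + 1) with their standard error (SE), from limma fitted over all 8 groups and all 14908 genes. A gene is called when its p, adjusted over all of these genes by the Benjamini-Hochberg method, is under 0.05. Genes named as the largest or leading changes are those among called members whose higher group averaged at least 50, and some called members at lower levels changed more. The labels call the samples animals but give no more on their origin, and p-values measure the spread between these samples. Recovered depth was 6024093 to 31923838 reads per library.

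Mean levels of the members ran from 11.1 (Rpl36a) to 22796 (Rplp0). The 39 members with a mean of at least 1000 held 97.9% of the summed mean levels of the 68. The 15 members with a mean under 100 held 0.161%. Some low rows share their protein with a second row. Rpl8 had a mean of 26.8, and a row that carries the protein entry RL8_RAT had 807. Rplp1 had 534 and RLA1_RAT 2368, and Rps18 had 261 and RS18_RAT 443. Rows that carry a ribosomal protein entry in place of a symbol numbered 13, and 12 of them passed the minimum. Not all are second rows of a member. RS5_RAT, with a mean of 8958, and RL37A_RAT, with 3082, have no matching row with a symbol. Ribosomal protein genes have many near-identical copies in the genome, and how ambiguous reads were counted is not given in the sources used here, so the level of a single row is uncertain where a copy exists.

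The titles of the samples begin with a number whose first 2 digits form 4 series, and the labels do not say what it stands for. Series 12 holds all control_blank and acute_VCV libraries, series 18 all control_chronic libraries, series 14 all chronic_noisy libraries, 3 of healthy_VCV and 2 of acute_noisy, and series 15 all healthy_noisy and chronic_VCV libraries, 1 of healthy_VCV and 2 of acute_noisy. Whatever the number stands for cannot be told apart from the group in comparisons across series. Comparisons within a series are therefore given first.

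The share of all reads that fell on the 68 genes was highest in both groups of series 12. It was 2.43% ± 0.340 (SD, n = 3) in control_blank and 2.38% ± 0.219 (SD, n = 3) in acute_VCV. The lowest of these 6 libraries was at 2.04%. It was 1.79% ± 0.173 (SD, n = 5) in control_chronic, 1.71% ± 0.241 (SD, n = 3) in healthy_noisy, 1.65% ± 0.144 (SD, n = 3) in chronic_VCV and 1.62% ± 0.0395 (SD, n = 4) in acute_noisy. The lowest shares were 1.52% ± 0.201 (SD, n = 3) in chronic_noisy and 1.403% ± 0.120 (SD, n = 4) in healthy_VCV. The highest library outside series 12 was at 1.95%, so series 12 did not overlap with the other 22 libraries, while the ranges of neighbouring groups among the other 6 overlapped. In acute_noisy the libraries of series 14 and of series 15 both had a mean share of 1.62%.

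**Figure D1:**
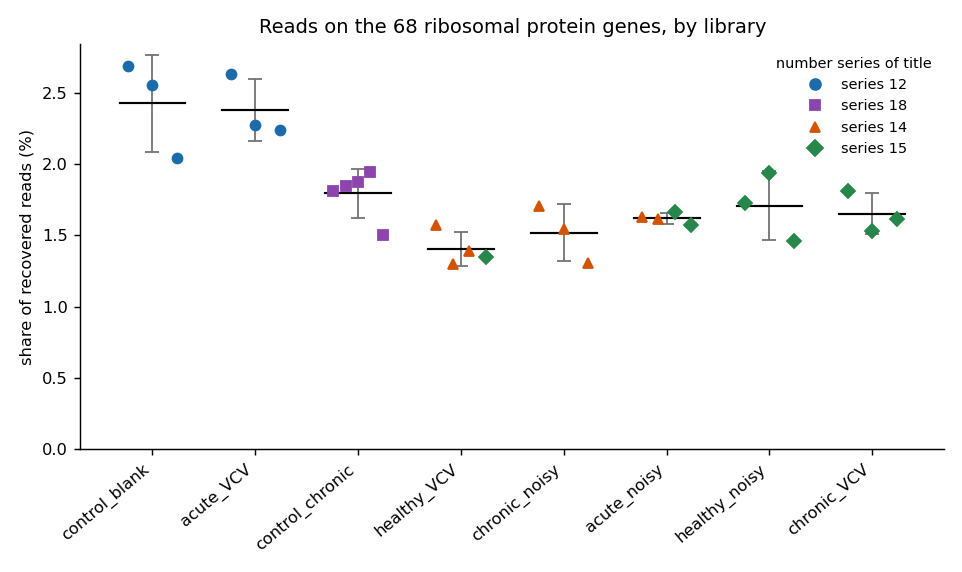
Share of recovered reads on the 68 ribosomal protein genes (y axis, percent, from 0) in each of the 28 libraries, by group (x axis). Points are libraries, shape and colour give the number series, and bars give the group mean and SD. The 6 libraries of series 12 lie at 2.04% to 2.68%, above the 22 others.

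Some single genes were also highest in series 12. Rps24, a small subunit protein, had levels of 11718, 11233 and 8973 in control_blank and of 9021, 8330 and 8177 in acute_VCV. It had 4327, 3428, 3189 and 3420 in healthy_VCV, 5054, 5970 and 4632 in healthy_noisy, and 4530, 4832, 4068 and 4114 in acute_noisy. In control_chronic the lowest, median and highest levels of Rps24 were 4942, 6044 and 7205. It had 7671, 4069 and 4198 in chronic_VCV and 5853, 4243 and 3240 in chronic_noisy. Every library of series 12 was above every other library for Rps24, with 8177 as the lowest inside and 7671 as the highest outside. Rpl11, which binds Mdm2, had 10556 as its lowest level in series 12 and 8514 as its highest elsewhere. In all, 12 members (17.6%) had all 6 libraries of series 12 above the 22 others, a pattern seen in 0.919% of all genes tested. They included Rpl5, Rpl11, Rps21, Rps24 and Rps27, named after their values were seen. The opposite pattern was found in 0 members and in 0.416% of genes.

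**Figure D2:**
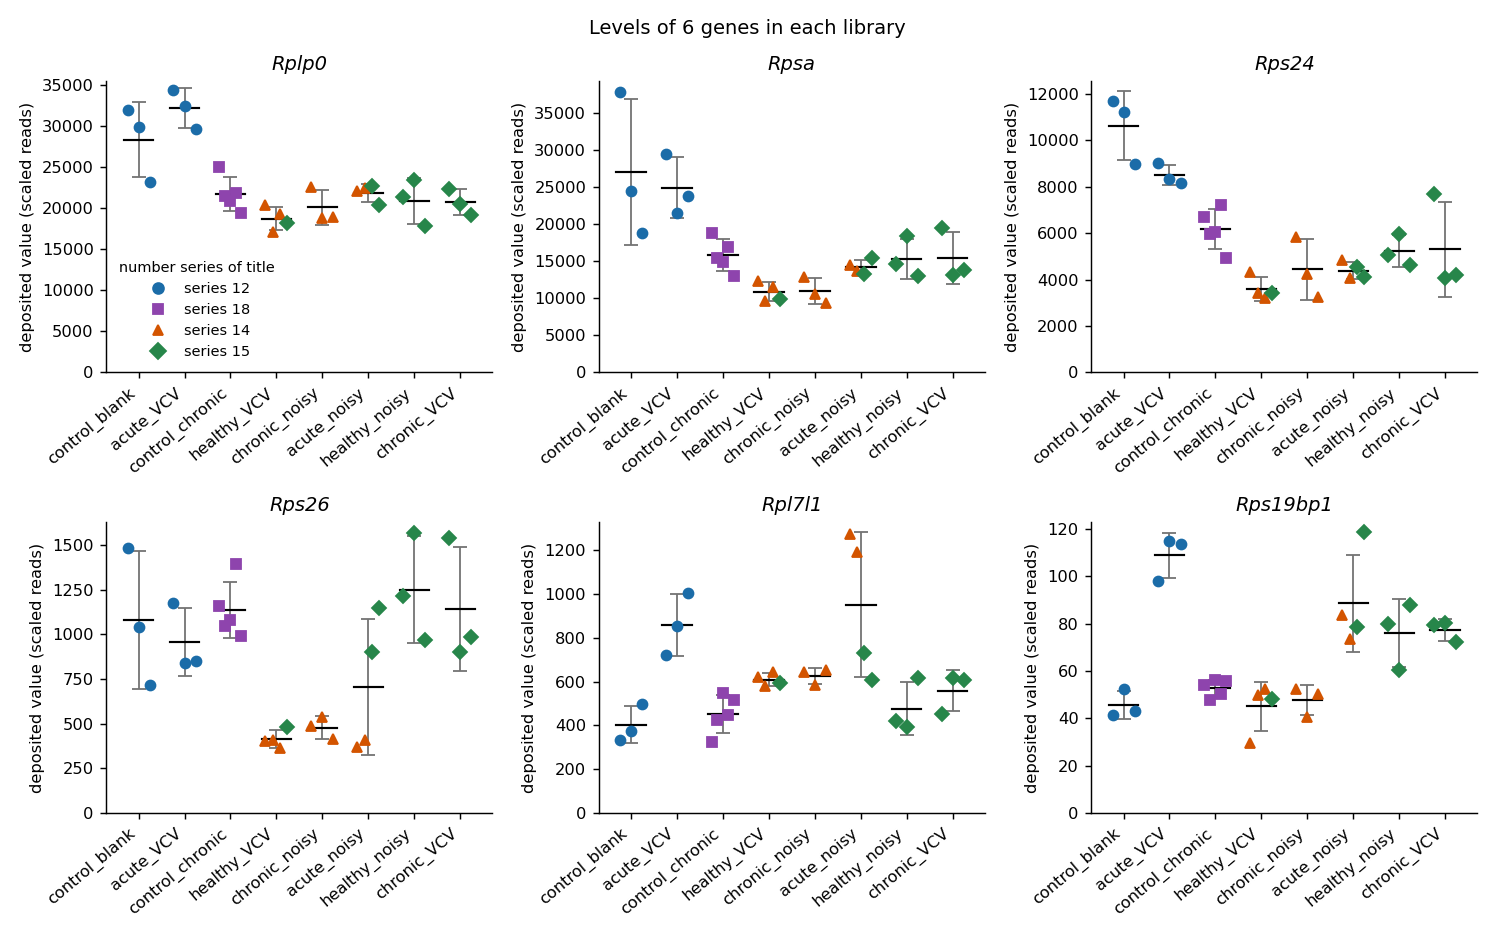
Levels of 6 genes (y axes, deposited values from 0) in each library, by group (x axes). Points are libraries, shape and colour give the number series, and bars give the group mean and SD. Rps24 is higher in every library of series 12 than in all others. Rplp0 and Rpsa are highest there by group mean, without full separation. Rps26 is lowest in series 14 and in healthy_VCV. Rpl7l1 is high in acute_VCV and in the acute_noisy libraries of series 14. Rps19bp1 is high in acute_VCV, and in acute_noisy it overlaps with healthy_noisy.

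Acute injury under constant ventilation can be set against uninjured, unventilated lungs within series 12. Most ribosomal protein genes did not pass the test there, while 4 of 68 rose and 0 fell. The share called among all genes was 20.6% higher and 16.7% lower. Rps19bp1, the Rps19-binding protein, rose by 1.24 ± 0.22 (log2, SE; adjusted p = 0.00016), from 41.3, 52.6 and 43.1 in control_blank to 97.8, 114.8 and 113.7 in acute_VCV. Its groups did not overlap. Rpl7l1, a paralog of Rpl7, rose by 1.10 ± 0.24 (log2, SE; adjusted p = 0.001), from 336, 376 and 498 to 720, 852 and 1004, again without overlap. The other calls were Rpl8 (0.95 ± 0.34, adjusted p = 0.033) and Rpl27 (0.46 ± 0.18, adjusted p = 0.046). RL8_RAT, the second row of the Rpl8 protein with a higher mean level, changed by -0.08 (adjusted p = 0.80). No more than 2 of the 4 calls were left without control_blank_074 or without any 1 of acute_VCV_040, acute_VCV_045 and acute_VCV_049.

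The median change of the 68 was 0.09 (log2) in this comparison, beside 0.07 for all genes. Under quantile normalization it was -0.06, so no direction is given for the whole. The scaling also moved all genes, with 3066 higher and 2497 lower calls in limma and 2737 and 2829 in edgeR. Of the 27 small subunit genes 0 were called, and of the 35 of the large subunit and stalk 2 were. The highest level of Rplp0, the scaffold of the stalk, was 31978 in control_blank (31978, 29930 and 23226) and 34473 in acute_VCV (34473, 32493 and 29617), and its change of 0.19 ± 0.13 did not pass the test. With 8 members at an unadjusted p under 0.05, edgeR called 3.

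Most genes of ribosome assembly on the list rose in the same libraries. Of 40 ribosome biogenesis genes, 34 rose and 0 fell in acute_VCV against control_blank, with a median of 1.16 (log2), and the alternatives run gave 32 to 36. Rrp9, a component of the U3 snoRNP, rose by 1.87 ± 0.24, Heatr1, which acts in rRNA transcription and processing, by 1.86 ± 0.33, and Nop2, an rRNA methyltransferase, by 1.72 ± 0.20. Nop56, a core protein of box C/D snoRNPs, had mean levels of 646 ± 43.8 (SD, n = 3) in control_blank and 2038 ± 350.1 (SD, n = 3) in acute_VCV. Myc rose by 2.38 ± 0.30. Of the 18 regulators of ribosomal protein mRNAs that include it, 5 were higher and 1 lower, not far from the 20.6% and 16.7% of all genes. Of 15 other TOP mRNAs 7 rose and 0 fell, led by Npm1 (0.79 ± 0.20), a nucleolar chaperone and the alternatives run gave 3 to 7 higher, the fewest in a fit to these 2 groups alone.

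Markers of several cell types moved in the same comparison. The summed level of 7 such markers, including S100a8 and S100a9, ran from 2759 to 3183 in control_blank and from 30215 to 116298 in acute_VCV, and 7 of 7 were called higher. These sums were also high in ventilated lungs without injury, at 19518 to 32516 in healthy_VCV, which overlapped with acute_VCV. Marker sums of ciliated cells went from 3263 to 7783 in control_blank to 773 to 1312 in acute_VCV. Those of club cells went from 502357 to 1321110 to 186423 to 274177, and those of alveolar type 1 cells from 112191 to 130314 to 87915 to 103089, all without overlap. Sums of proliferating cells (712 to 1044 and 490 to 604) and macrophages (193879 to 228059 and 173710 to 190513) were also lower without overlap. Those of endothelium were higher without overlap (23428 to 31438 and 32723 to 40453). The part of these markers in the results on ribosomal protein and assembly genes was not tested. No marker of any of the cell type lists was at 0 in every library of a group, and the markers of alveolar type 1 and type 2 cells that define lung tissue were present in all groups.

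A second comparison of acute injury within a series sets 2 acute_noisy libraries against 3 healthy_VCV libraries of series 14; it was added after the first results were seen and differs in ventilation mode too. Of the 68 members 13 rose and 0 fell, beside 15.1% and 16.9% of all genes, so this count is close to the background. The median change was 0.37 (log2), beside -0.02 for all genes, and 0.23 under quantile normalization. Rpl7l1 rose by 1.00 ± 0.22 (log2, SE; adjusted p = 0.0012), from 621, 580 and 643 to 1274 and 1189. Rps19bp1 rose by 0.86 ± 0.25 (adjusted p = 0.01), from 29.8, 49.8 and 52.6 to 83.6 and 73.4. That call was lost in a fit to the groups compared (adjusted p = 0.062), without healthy_VCV_025 (0.069) and without acute_noisy_047 (0.11). Rps2, a small subunit protein, rose by 2.94, a call lost when any 1 library was left out (adjusted p of 0.062 to 0.20).

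The other calls among the 13 were Rpl3, Rpl6, Rpl11, Rpl14, Rpl22l1, Rpl34, Rpl36al, Rps6, Rps9 and Rps28, with changes of 0.42 to 1.86. Rpl3, at the peptidyl transferase centre, rose by 0.47, and Rps6, the substrate of S6 kinases, by 0.54. Both were lost under quantile normalization, where Rpl3 was at 0.22 and Rps6 at 0.30. The count was 22 in edgeR and 21 in a fit to the groups compared. It fell to 4 without acute_noisy_047, 6 without acute_noisy_050 and 7 without healthy_VCV_057. Of the 40 ribosome biogenesis genes 36 rose, with a median of 1.39, and Nop56 rose by 2.07 ± 0.18. Of the 7 neutrophil markers 5 were called higher, and their part was not tested.

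In acute_noisy against healthy_noisy, 2 members rose and 1 fell, beside 12.9% and 13.9% of all genes. Rpl7l1 rose by 0.95 ± 0.22 (adjusted p = 0.0046) and Rps12 by 0.96 ± 0.33 (adjusted p = 0.037), and Rps26 fell by 0.96 on the log2 scale (adjusted p = 0.023). None of these calls was left in a fit to the 2 groups alone, within series 15 or with series 15 as a covariate, where Rpl7l1 was at 0.69 (adjusted p = 0.068). With healthy_noisy_029, acute_noisy_047 or acute_noisy_050 left out 1 call was left, and without acute_noisy_053 there were 5. Of the 40 ribosome biogenesis genes 33 rose and 0 fell, with a median of 0.94. That count was 11 within series 15, where the median was 0.54, and 0 in a fit to the 2 groups alone. The scaling moved the split of all genes, with 48.2% of calls higher in limma and 63.6% in edgeR.

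Rpl7l1 was split by series within acute_noisy, at 1274 and 1189 in series 14 and at 728 and 609 in series 15. In healthy_noisy it was at 419, 393 and 616, so acute_noisy_053 lay below the highest of them. Its lowest levels were in unventilated lungs, with 336 to 498 in control_blank and 324 to 548 in control_chronic. Rps19bp1 had 78.5 and 119 in the acute_noisy libraries of series 15 and 79.7, 60.3 and 88.0 in healthy_noisy, which overlapped.

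No ribosomal protein gene was called between chronically injured and uninjured ventilated lungs of the same series. In chronic_noisy against healthy_VCV within series 14, 0 of 68 were called, beside 0.00 percent higher and 0.00671 percent lower of all genes. At an unadjusted p under 0.05 there were 0, and edgeR called 0. The median change was 0.11 (log2). In chronic_VCV against healthy_noisy within series 15, 0 of 68 were called, beside 0.0201 percent higher and 0.00671 percent lower of all genes, with 0 at an unadjusted p under 0.05 and 0 in edgeR. The median was -0.02. These comparisons differ in ventilation mode as well as in injury. Rps24 had levels of 4327, 3428 and 3189 in healthy_VCV and 5853, 4243 and 3240 in chronic_noisy of series 14, and 5054, 5970 and 4632 in healthy_noisy and 7671, 4069 and 4198 in chronic_VCV of series 15. The groups overlapped in both.

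The difference between series 15 and series 14, estimated within the groups that hold both, was called for 0 members, beside 0.604% higher and 0.543% lower of all genes. With 9 members at an unadjusted p under 0.05, edgeR called 0. The fit gave 1 call without healthy_VCV_057 and 5 without healthy_VCV_062. The closest was Rps26, which lies at the mRNA exit of the small subunit, at 0.91 ± 0.24 (adjusted p = 0.055). Rps26 had 373 and 407 in the acute_noisy libraries of series 14 and 899 and 1148 in those of series 15. It had 406, 411 and 364 in healthy_VCV and 486, 537 and 414 in chronic_noisy of series 14, and 480 in the healthy_VCV library of series 15. All other libraries had 717 to 1568.

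**Figure D3:**
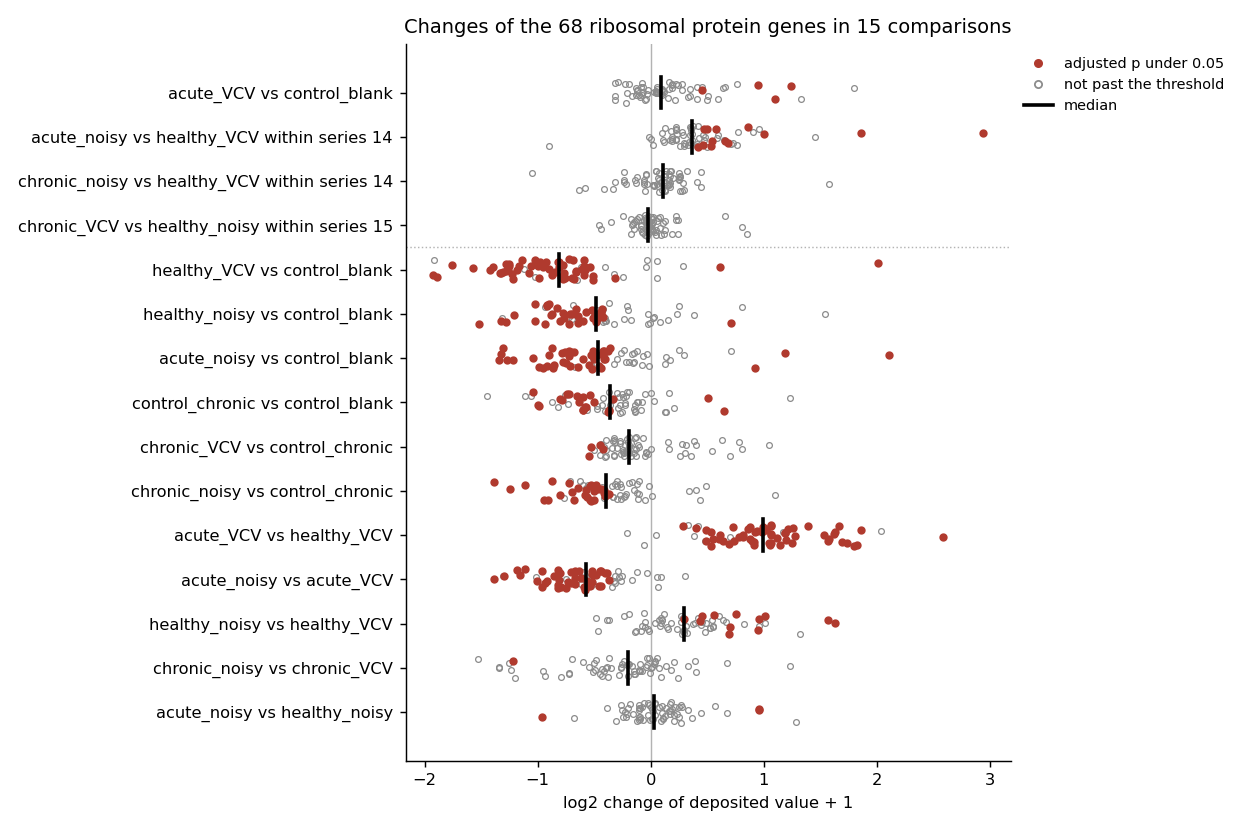
Changes of the 68 genes (x axis, log2 of level + 1) in 15 comparisons (y axis), the first 4 of which stay within a number series. Filled points passed the test, open points did not, and black bars are medians. Medians lie at 0.09, 0.37, 0.11 and -0.02 in the upper 4, and at -0.81 in healthy_VCV against control_blank.

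Across series, ventilation of uninjured lungs with a constant tidal volume went with lower levels of most members. In healthy_VCV against control_blank 53 of 68 fell and 2 rose, beside 28.1% and 29.3% of all genes. The median change was -0.81 (log2), or 0.569-fold, beside -0.03 for all genes, and -0.88 beside -0.13 under quantile normalization. Both subunits took part, with 22 of 27 small subunit genes and 29 of 35 genes of the large subunit and stalk lower. Of the 39 members with a mean of at least 1000, 37 fell. All healthy_VCV libraries were below all control_blank libraries for 52 members, beside 30.0% of all genes.

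The largest falls by the naming rule were in Rps18 (-1.92 ± 0.33, adjusted p = 3.9e-05), Rplp1 (-1.89 ± 0.30, adjusted p = 1.8e-05) and Rps21 (-1.76 ± 0.29, adjusted p = 3.2e-05). Rps18 went from 685, 524 and 213 to 93.6, 126, 91.1 and 141. The second rows of these proteins changed less, RS18_RAT by -0.75 (adjusted p = 0.0020) and RLA1_RAT, that of Rplp1, by -0.14 (adjusted p = 0.68). Of the 12 tested rows with a protein entry, 8 fell and 0 rose, with a median of -0.83. Rpsa, also known as the laminin receptor, changed by -1.26 ± 0.19, Rps6 by -0.67 ± 0.13, Rplp0 by -0.59 ± 0.12 and Rpl5 by -0.51 ± 0.11. Rpl22, an RNA-binding protein of the large subunit, changed by -1.14 ± 0.19 and its paralog Rpl22l1 by -1.42 ± 0.17. Levels of Rpl22l1 were 970, 656 and 581 in control_blank and 263, 344, 216 and 264 in healthy_VCV, without overlap. Rpl7l1 rose by 0.61 ± 0.22 (adjusted p = 0.022), and Rpl10l, a paralog of Rpl10, by 2.01 ± 0.75 (adjusted p = 0.025). Rpl10l had 1.62, 38.2 and 5.59 in control_blank, and its call was lost in edgeR (adjusted p = 0.13) and without control_blank_016 (adjusted p = 0.24). The call of Rpl7l1 was lost without control_blank_016 or control_blank_021. The 13 members not called were Rpl26, Rpl27, Rpl27a, Rpl36a, Rpl37, Rpl41, Rps2, Rps4y2, Rps10, Rps14, Rps15a, Rps19bp1 and Rps25.

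Members with and without a C and T run at the start were lower to a similar extent in this comparison, a difference that was not tested. The median was -0.90 (log2) for the 35 members with a C and T run at the start and -0.80 for the 22 without, and 28 and 17 of them fell. The 634 other genes with such a run had a median of 0.06. Of the 15 other TOP mRNAs 7 fell and 3 rose, the largest falls being Eef1d (-0.97 ± 0.16), Tpt1 (-0.86 ± 0.13) and Eef1b2 (-0.84 ± 0.15). Eef1d and Eef1b2 are elongation factor subunits. Gnb2l1, which encodes the small subunit protein Rack1, changed by -0.36 ± 0.12. Among 18 regulators 10 rose and 3 fell, the largest being Mxd1 (2.46 ± 0.31), an antagonist of Myc, Tsc1 (1.99 ± 0.25) and Eif4ebp2 (1.53 ± 0.22), both of which restrain translation downstream of growth signals.

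Genes of the mitochondrial ribosome and of a second list of mitochondrial genes had changes of about the same size. Of 65 mitochondrial ribosomal protein genes 60 fell and 0 rose, with a median of -0.80. Of 74 nuclear genes listed as short mitochondrial proteins, 59 fell and 1 rose, with a median of -0.73. That list was chosen by names starting Ndufa, Ndufb, Cox, Uqcr or Atp5 alone, and protein length was not checked. Ribosome biogenesis genes differed less, with 14 of 40 lower, 2 higher and a median of -0.30, and without control_blank_016 the count was 8 in all. Marker sums moved in the same comparison. Neutrophil markers summed to 2759 to 3183 in control_blank and 19518 to 32516 in healthy_VCV, ciliated cell markers to 3263 to 7783 and 1046 to 1665, and fibroblast markers to 51796 to 79020 and 108992 to 154039. Club cell sums (502357 to 1321110 and 160184 to 190623) and alveolar type 2 sums (523016 to 790616 and 342365 to 461631) were lower without overlap. So were those of alveolar type 1 cells, B and plasma cells and heart muscle. Endothelium sums were higher without overlap (23428 to 31438 and 43274 to 46389). Their part in the result was not tested, and series 12 and control_blank cannot be told apart here.

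**Figure D4:**
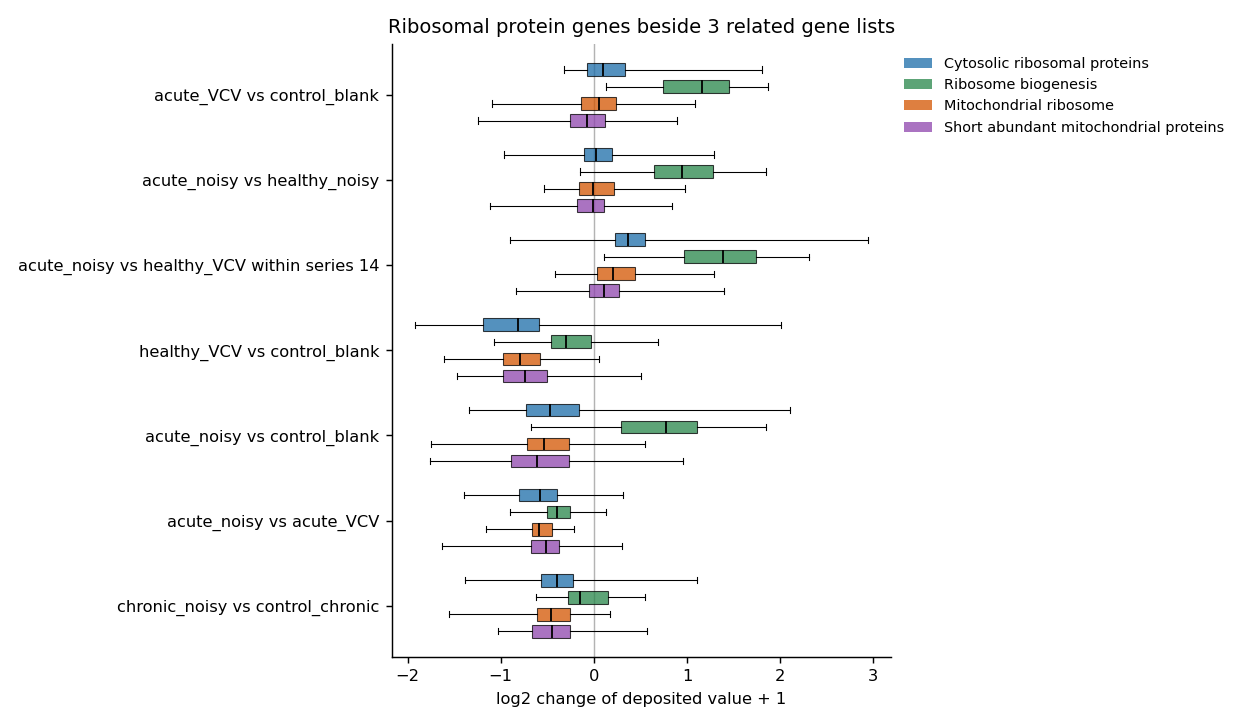
Changes (x axis, log2 of level + 1) of the 68 ribosomal protein genes and 3 related lists in 7 comparisons (y axis). Boxes give the quartiles, lines in them the medians and whiskers the lowest and highest gene. Ribosome biogenesis genes have medians of 1.16, 0.94 and 1.39 in the upper 3, and in healthy_VCV against control_blank the medians of ribosomal proteins and mitochondrial ribosome are -0.81 and -0.80.

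Most called members were also lower than control_blank in healthy_noisy, acute_noisy and control_chronic, with medians nearer 0. In healthy_noisy 35 members fell and 1 rose (14.6% and 17.5% of all genes), with a median of -0.49 (log2). Rps27, a small subunit protein, changed by -1.52 ± 0.23, from 25316, 23387 and 20043 to 7779, 9282 and 7035, Rpl10a, the protein of the L1 stalk, by -1.32 ± 0.20 and Rps12 by -1.28 ± 0.36. Rps19bp1 rose by 0.71 ± 0.22 (adjusted p = 0.017), a call lost in a fit to the 2 groups and without control_blank_016, healthy_noisy_029 or healthy_noisy_078, with adjusted p of 0.062 to 0.13. The call of Rps12 was lost in the fit to the 2 groups (adjusted p = 0.071) and without healthy_noisy_029 (0.069). Marker sums moved in this comparison too, to 25699 to 34530 for neutrophils, 328 to 1359 for heart muscle (9427 to 16874 in control_blank), 1036 to 2190 for ciliated cells and 665 to 1163 for B and plasma cells (2629 to 3949 in control_blank). Their part was not tested. The count of 36 was 20 without control_blank_016, 23 without healthy_noisy_078 and 16 in a fit to the 2 groups. For all genes limma gave 2610 higher and 2181 lower calls and edgeR 2036 and 2795.

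In acute_noisy 40 members fell and 3 rose (28.4% and 31.3% of all genes), with a median of -0.47. The largest changes were in Rps27 (-1.34 ± 0.21), Rplp1 (-1.32 ± 0.30) and Rps21 (-1.31 ± 0.29). Rpl7l1 (1.19 ± 0.22), Rps19bp1 (0.92 ± 0.21) and Rpl10l rose, and the call of Rpl10l was lost in edgeR (adjusted p = 0.098). The count of 43 was 28 without control_blank_016 and 25 in a fit to the 2 groups. Ribosome biogenesis genes were higher in this comparison, with 29 called higher, 1 lower and a median of 0.78. Marker sums were 23296 to 92790 for neutrophils, 231 to 8337 for heart muscle and 355 to 1101 for ciliated cells in acute_noisy, none overlapping with control_blank, and their part was not tested.

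In control_chronic, which was not ventilated, 20 members fell and 2 rose against control_blank (5.55% and 9.30% of all genes), with a median of -0.36. Rps27 (-1.04 ± 0.20), Rps21 (-0.996 ± 0.280) and Rps12 (-0.99 ± 0.32) had the largest falls, and Rpl26 (0.65 ± 0.17) and Rpl27 (0.51 ± 0.16) were the members that rose. Both of these higher calls were lost without control_blank_016 and in a fit to the 2 groups. The call of Rps12 was lost in 9 of its alternatives, edgeR among them (adjusted p = 0.0502), and that of Rps21 in 4, all of which left out libraries. Marker sums of heart muscle (880 to 1221 against 9427 to 16874), proliferating cells (236 to 389 against 712 to 1044) and neutrophils (867 to 2438 against 2759 to 3183) were lower in control_chronic without overlap, and their part was not tested. The count of 22 depended on single libraries. It was 2 without control_blank_016, 11 without control_blank_021, 34 without control_blank_074, 12 without control_chronic_117 and 9 without control_chronic_113 and control_chronic_114, the 2 shallowest libraries. For all genes limma gave 1386 higher and 828 lower calls and edgeR 710 and 1139.

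These comparisons share the 3 control_blank libraries, so their counts are not independent. Acute injury under constant ventilation set against healthy_VCV, series 12 against series 14 and 15, gave 58 members higher and 0 lower (26.1% and 26.4% of all genes), with a median of 1.00. The largest were Rps18 (1.86 ± 0.33), Rpl8 (1.82 ± 0.32) and Rps19 (1.798 ± 0.380). Rps18 and Rpl8 each have a second row. Of the 12 tested rows with a protein entry, 7 rose and 0 fell, with a median of 0.78. Ribosome biogenesis genes were higher in 39 of 40, with a median of 1.29.

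Set against control_chronic, chronic_VCV gave few calls and chronic_noisy gave more. The libraries of control_chronic, of chronic_VCV and of chronic_noisy each lie in a different number series. Series therefore cannot be told apart from ventilation, or from its mode, in these counts. The direct comparison of chronic_noisy with chronic_VCV, given below, called 1 member. In chronic_VCV against control_chronic 4 members fell and 0 rose (7.90% and 6.89% of all genes), with a median of -0.20. Rpl23a (-0.54 ± 0.13), Rpl15 (-0.53 ± 0.15) and Rpl7 (-0.45 ± 0.12), all of the large subunit, led. The count was 9 without control_chronic_117, 8 without chronic_VCV_067, 0 without chronic_VCV_069, 1 without chronic_VCV_073 and 2 without control_chronic_113 and control_chronic_114. In chronic_noisy against control_chronic 29 fell and 0 rose (18.1% and 19.1% of all genes), with a median of -0.40. Rps26 (-1.24 ± 0.29), Rps18 (-1.11 ± 0.31) and Rpl22l1 (-0.95 ± 0.16) had the largest falls. The count was 11 without chronic_noisy_084, 17 without control_chronic_116 and 17 without control_chronic_113 and control_chronic_114. Of the 65 mitochondrial ribosomal protein genes 43 fell, and 27 did without chronic_noisy_084. Between control_chronic and chronic_noisy, marker sums went from 867 to 2438 to 16961 to 31794 for neutrophils, from 2694 to 4195 to 1093 to 1626 for ciliated cells, from 386668 to 642554 to 111046 to 213363 for club cells and from 880 to 1221 to 2013 to 7800 for heart muscle. In chronic_VCV neutrophil sums were 9866 to 26101. The part of these markers was not tested.

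Variable against constant tidal volume was compared in each arm. In uninjured lungs 12 members rose and 0 fell (4.31% and 6.01% of all genes), with a median of 0.29 (log2). Rps26 rose by 1.57 ± 0.30 (adjusted p = 0.023), from 406, 411, 364 and 480 to 1215, 1568 and 970. Rps18 (1.01 ± 0.33, adjusted p = 0.049), Rplp1 (0.96 ± 0.30, adjusted p = 0.045) and Rpl22l1 (0.95 ± 0.17, adjusted p = 0.018) also rose. No call was left without healthy_VCV_025, healthy_VCV_060, healthy_noisy_029 or healthy_noisy_061, 1 without healthy_VCV_057 and 3 without healthy_VCV_062, while 19 were made without healthy_noisy_078. The count was 0 with series 15 as a covariate and 0 within series 15. Marker sums that did not overlap were those of endothelium (43274 to 46389 in healthy_VCV and 25281 to 31079 in healthy_noisy), heart muscle (1739 to 9106 and 328 to 1359), club cells (160184 to 190623 and 236832 to 403818) and alveolar type 2 cells (342365 to 461631 and 493651 to 553062), and their part was not tested. With the covariate and within series 15 the medians were 0.35 and 0.31, and only 1 healthy_VCV library remained within the series.

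After acute injury 44 members fell and 0 rose under variable ventilation (12.3% and 11.9% of all genes), with a median of -0.57. Rps19 (-1.39 ± 0.38), Rpl10a (-1.30 ± 0.18) and Rps21 (-1.18 ± 0.29) led. The count was 15 without acute_VCV_040 and 0 in a fit to these 2 groups alone, where the median was also -0.57. Mitochondrial ribosomal protein genes were lower in 55 of 65 (median -0.59), again 0 in the fit to the 2 groups and 26 without acute_VCV_040. Heart muscle markers, which the wall of rat pulmonary veins expresses, also fell, with 6 of 6 called. Their sums were 6061 to 14886 in acute_VCV and 231 to 8337 in acute_noisy, which overlapped. Sums without overlap were those of alveolar type 1 cells (87915 to 103089 and 50914 to 84501) and of B and plasma cells (1855 to 3666 and 792 to 1717). The part of these markers was not tested. No acute_VCV library shares a series with an acute_noisy library, so series and mode cannot be told apart. For all genes limma gave 1774 higher and 1835 lower calls, edgeR 2120 and 1513.

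After chronic injury 1 member, Rps26, fell and 0 rose under variable ventilation (1.86% and 0.563% of all genes), with a median of -0.20. Rps26 went from 1537, 901 and 986 to 486, 537 and 414, a change of -1.22 ± 0.32 (adjusted p = 0.045). With series 15 as a covariate the change was -0.31 (adjusted p = 0.80). The call was also lost without any 1 of chronic_VCV_067, chronic_VCV_073, chronic_noisy_075, chronic_noisy_079 and chronic_noisy_084, and without chronic_VCV_069 there were 3 calls.

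The change with mode differed between arms in tests of the difference, which were added after the first results. After acute injury it was lower than in uninjured lungs for 50 members and higher for 0 (19.4% and 19.6% of all genes), with a median difference of -0.91 (log2). By the naming rule, applied to the highest of the 4 groups, Rps18 (-2.17 ± 0.46), Rps26 (-2.15 ± 0.43) and Rps19 (-2.06 ± 0.54) led. After chronic injury it was lower for 25 and higher for 0 (14.0% and 15.7% of all genes), with a median of -0.53, led by Rps26 (-2.79 ± 0.44), Rps18 (-1.803 ± 0.478) and Rplp1 (-1.68 ± 0.44). The second count was 0 with series 15 as a covariate and 14 without chronic_VCV_067. The first rests on acute_VCV, which is in series 12 alone.

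Most members varied together over the 28 libraries. Pearson's r with the mean log2 level of the other members was at least 0.8 for 40 members and under 0.5 for 10, with a median of 0.83. It was highest for Rpl23 (0.985), a large subunit protein whose start window is shown above, and below 0 for Rpl10l (-0.26) and Rpl7l1 (-0.09). Of 12309 other genes, those most like the mean of the members were Snrpf (0.969), a core protein of spliceosomal snRNPs, Aurkaip1 (0.967), Polr2c (0.964), a subunit of RNA polymerase II, Pdcd5 (0.960) and Lrrfip2 (0.956). The libraries, groups and series are shared by all of these values, which are given as a description with no p. Snrpf had mean levels of 1161 ± 249.6 (SD, n = 3) in control_blank, 1535 ± 105.9 (SD, n = 3) in acute_VCV and 454.9 ± 81.9 (SD, n = 4) in healthy_VCV.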

How the data were processed

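Polyadenylated RNA was extracted with Qiagen RNeasy and made into strand-specific libraries, per the labels' protocols. The submitters' processing notes name CASAVA 1.8.0, BWA, bedtools 2.11, DESeq 1.8.3 and the genome build rn4, and the annotation is Ensembl 67 per the file headers. The deposited signal values are read counts that the authors divided by 1 size factor per library. Dividing by the value of 1 read gave whole reads, within 0.1 read, for at least 99.994% of genes in every library. Whether strand was used in counting is not given in the sources used here.

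Genes with a mean of at least 10 were tested on log2(value + 1) with limma 3.58.1 (R 4.3.3; group means, trended and robust variance, two-sided, Benjamini-Hochberg over 14908 genes). Comparisons within a series used a mean for each group and series. Alternatives were edgeR 4.0.16 on recovered reads, a pseudocount of 10, no filter, quantile normalization, fits to the groups compared, left-out libraries and series terms. The scripts were tested on simulated data. Named in each comparison were the 3 highest and 3 lowest called members whose higher group averaged 50 or more, a fixed set of members and paralogs, and at most 3 genes of each list. Rps24, Rpl23 and members named in short counts were chosen after their values were seen. The members and lists were chosen with earlier results of these data known. Start windows come from RefSeq, build GRCr8, and are not compared with rn4 coordinates. Some items are not reported here.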

Additional observations from a re-analysis of the deposited data

Results flagged for a closer look

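Rps2 in healthy_VCV had 1 library far from the others, at 282.0 in healthy_VCV_062 against 28.2 to 46.4 in the other 3, a gap of 0.928 of the range, which is above Dixon's critical value for 4 libraries. It was the 1 such case among 33 sets of values checked, and chance gives about 1 in 20. The change with ventilation mode differed between acutely injured and uninjured lungs for 50 members, all lower, beside 19.4% of all genes lower. Between chronically injured and uninjured lungs it differed for 25 members, all lower, beside 14.0% of all genes, and this count was 0 with series 15 as a covariate and 14 without chronic_VCV_067. Both were tests of the difference itself. For the acute count, no acute_VCV library shares a number series with an acute_noisy library, so series and mode cannot be told apart. No explanation was tested.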

How the results depend on the processing

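No paired analysis was possible because each replicate number occurs once in the series. In fits to the groups compared, the count of members called was 16 in healthy_noisy, 25 in acute_noisy and 9 in control_chronic against control_blank, 0 in acute_noisy against acute_VCV, 0 in acute_noisy against healthy_noisy, 0 in chronic_noisy against chronic_VCV and 21 in acute_noisy against healthy_VCV of series 14, where edgeR gave 22. Quantile normalization gave 2 in chronic_noisy against chronic_VCV. With series 15 as a covariate the count was 0 in all of healthy_noisy against healthy_VCV, acute_noisy against healthy_noisy, chronic_noisy against chronic_VCV and the chronic difference in mode effect, and within series 15 it was 0 for the first pair of these. Without control_chronic_113 and control_chronic_114 it was 9 in control_chronic against control_blank, 2 in chronic_VCV and 17 in chronic_noisy against control_chronic.

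Leaving out 1 library at a time gave, against control_blank, 48 to 54 in healthy_VCV, 20 to 40 in healthy_noisy, 2 to 5 in acute_VCV, 28 to 45 in acute_noisy and 2 to 34 in control_chronic. It gave 0 to 9 in chronic_VCV and 11 to 33 in chronic_noisy against control_chronic, 0 to 19, 15 to 42 and 0 to 3 for mode in uninjured, acute and chronic lungs, 56 to 59 in acute_VCV against healthy_VCV, 1 to 5 in acute_noisy against healthy_noisy, and 4 to 14 in acute_noisy against healthy_VCV of series 14. The within-series chronic comparisons gave 0 throughout, series 15 against 14 gave 0 to 5, and the differences in mode effect 45 to 50 and 14 to 29. In acute_VCV against control_blank the direction of 2 lists turned: short mitochondrial proteins without control_blank_016 (8 called), and mitochondrial ribosome without control_blank_074 (17) and without acute_VCV_040 (18). The causes were not tested. Depth limits control_chronic_113 most, at 6024093 reads.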

Other observations

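Genes whose levels ran opposite to the mean of the members over the 28 libraries were led by Zbtb4 (r of -0.957), Ndst1 (-0.955), Rics (-0.954), Col4a4 (-0.953) and Fbxl17 (-0.952), given as a description. Col4a4, a chain of basement membrane collagen, had mean levels of 3615 ± 1398 (SD, n = 3) in control_blank, 3088 ± 831 (SD, n = 3) in acute_VCV and 12324 ± 1299 (SD, n = 4) in healthy_VCV.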
